A study of Mus musculus with 7 samples.

Results

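The ATP-binding cassette (ABC) genes were followed in Lgr5-positive hair follicle cells of mouse back skin in the resting phase of the hair cycle, Telogen, and in its growth phase, Anagen. The members were all genes whose symbol is Abc followed by a subfamily letter from a to g and a number. There were 36 of them among the 15415 genes of the deposited table, with 11 in subfamily A, 9 in B, 6 in C, 3 each in D, F and G, and 1 in E. All animals were a C57Bl6 x B10D2 cross. The 3 Telogen samples came from mice of 45 days and the 4 Anagen samples from mice of 35 days, so age and phase cannot be told apart. Live cells (DAPI negative) were sorted from trypsinised, depilated epidermis by their green fluorescent protein signal and the absence of the leukocyte marker CD45, and RNA-seq libraries were made from total RNA. No label says whether a sample was 1 mouse or a pool. A p-value here sets the difference between the groups against the spread among the samples of a group. Part of that spread may be technical.

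ABC proteins bind and hydrolyse ATP. Most of them use it to move lipids, peptides, conjugated metabolites or drugs across a membrane, and each transporter is built from membrane-spanning and nucleotide-binding domains, carried by a single protein or by a dimer. Subfamily A moves lipids, B holds multidrug and organelle transporters, C holds exporters of conjugated anions and channel regulators, D works in peroxisomes and lysosomes, and G exports sterols and drugs. Subfamilies E and F have no membrane domain and act on ribosomes and in translation. In skin, ABC transporters are best known for loading lipids into the lamellar granules of the epidermis and for the dye efflux that has been used to enrich stem cells.

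The sequences before the starts of 4 genes with large changes in subfamilies A and B are given first. The calls for these genes come from counts alone and do not rest on the sequences. They are the 250 bases before the annotated start, taken from RefSeq (GRCm38.p6) and written 5′ to 3′ on the strand of the gene. Capitals mark GC boxes (GGGCGG), E-boxes (CACGTG), the xenobiotic response core (GCGTG), the TATA box (TATAAA) and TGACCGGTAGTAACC, on either strand.
Abca1 (chr4:53159896-53160145, minus strand): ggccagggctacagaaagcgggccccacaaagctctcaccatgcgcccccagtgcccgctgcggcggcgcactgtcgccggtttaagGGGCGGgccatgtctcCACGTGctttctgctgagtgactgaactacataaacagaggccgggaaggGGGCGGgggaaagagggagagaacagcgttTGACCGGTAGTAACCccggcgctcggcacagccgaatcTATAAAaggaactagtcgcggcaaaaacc
Abca3 (chr17:24351773-24352022, plus strand): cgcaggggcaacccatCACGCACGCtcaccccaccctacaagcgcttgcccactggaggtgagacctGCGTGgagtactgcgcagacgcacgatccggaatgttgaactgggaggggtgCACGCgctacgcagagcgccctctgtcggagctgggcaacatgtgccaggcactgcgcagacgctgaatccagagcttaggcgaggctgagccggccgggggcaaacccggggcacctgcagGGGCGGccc
Abca12 (chr1:71414911-71415160, minus strand): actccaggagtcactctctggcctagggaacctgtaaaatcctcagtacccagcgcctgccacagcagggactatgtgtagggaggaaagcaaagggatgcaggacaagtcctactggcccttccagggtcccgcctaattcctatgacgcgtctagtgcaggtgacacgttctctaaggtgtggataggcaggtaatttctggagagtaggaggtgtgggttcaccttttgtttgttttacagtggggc
Abcb1b (chr5:8797897-8798146, plus strand): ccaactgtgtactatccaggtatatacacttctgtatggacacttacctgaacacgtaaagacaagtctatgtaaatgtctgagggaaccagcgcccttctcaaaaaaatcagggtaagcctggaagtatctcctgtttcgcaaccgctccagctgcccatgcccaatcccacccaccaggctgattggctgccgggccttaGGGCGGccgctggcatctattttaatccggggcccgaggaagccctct
The Abca1 window held every one of these motifs except the xenobiotic core. Its TATA box lay at -29 to -24, its GC boxes at -163 to -158 and -97 to -92, its E-box at -147 to -142 and the 15-letter element at -67 to -53, counted from the start. That element is the known site for liver X receptors, the oxysterol-sensing nuclear receptors, in the ABCA1 promoter, and its letters were chosen after the Abca1 sequence had been read. It was found in 2 of 32851 promoter windows of this length (0.00609%), and a string of this length copied from a window is rare by construction. The consensus spaced repeat of nuclear receptors, read as AGGTCA, 4 free bases and AGGTCA on either strand, was in none of the 34 member windows, and in 0.0152% of all windows. The shorter motifs were found in 32.7% (GC box), 28.2% (GCGTG), 12.4% (TATAAA) and 6.02% (E-box) of all windows. The Abca3 window held 1 GC box at -9 to -4 and 4 GCGTG cores, of which a pair overlapped by a base, and Abcb1b held 1 GC box at -48 to -43. None of these motifs was in the Abca12 window. A promoter was found for 28 of the 36 members, in 34 windows, of which 18 held a GC box (52.9%). A match describes the letters and is neither a binding site nor a cause.

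Of the 36 members, 26 had enough counts for the test and 10 did not. Of those described here, Abca12, Abca3, Abcc10 and Abca1 were among the genes that rose in Anagen, and Abcb1b, Abcc4, Abce1 and Abcg2 fell. The test was edgeR's quasi-likelihood test over the 12266 genes with sufficient counts, with Benjamini-Hochberg adjusted p under 0.05. Of the 26 members tested, 12 rose, 4 fell and 10 did not pass, so 61.5% passed against 49.5% of all genes tested. Those that rose were 46.2%, against 25.8% of all genes that rose and 23.7% that fell. Their median log2 fold change, Anagen minus Telogen, was 0.62 against 0.09 for all genes tested. Every Anagen value lay above every Telogen value in 15 members and below in 3. Of all genes tested, 54.5% had groups that did not overlap, 29.8% with Anagen above and 24.8% with Anagen below. With a fold of at least 2 as well, 10 members rose and 4 fell, beside 21.8% and 19.5% of all genes. The filter on low counts asks for as many libraries above a cutoff as the smaller group holds. Of the members tested, 2, Abcc10 among them, were below that cutoff in every Telogen library and passed through the Anagen libraries alone. Abca3, Abca7, Abca12, Abcb9 and Abcg1 were above it in only some Telogen libraries and also needed Anagen libraries to pass. Abca3, Abca12, Abcb9 and Abcc10 are among the rises, so these counts describe the members tested and not the family.

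The libraries were unequal in depth, and markers of cell types other than keratinocytes were detected. Total counts were 5097457 to 6453337 in Telogen and 13719893 to 17042690 in Anagen, and levels are given as CPM, a gene's count on a common scale of library totals adjusted by trimmed mean of M-values (TMM). Bulge and hair germ markers summed to 15449.2 to 20871.4 CPM in Telogen and 3250.8 to 4002.9 CPM in Anagen, while keratinocyte markers summed to 24308.3 to 33254.7 and 42060.3 to 49930.5 CPM. Of the 10 bulge and hair germ markers, 8 fell and 1 rose. Sox9 was higher in Anagen (676 to 1037.0, then 1774.1 to 2365.5 CPM) and made up most of the Anagen sum. Of the 12 keratinocyte markers, 6 rose and 2 fell. Krt15, which is in both lists, was lower in Anagen (6337.9 to 9963.8, then 115 to 240 CPM), as was Itga6 (630 to 1032.2, then 161 to 231 CPM). Lgr5 itself was at 446 to 473 CPM in Telogen and 24.9 to 82.6 CPM in Anagen. Fibroblast and dermal papilla markers summed to 1096.7 and 1539.4 CPM in Anagen 1 and Anagen 2, against 91.5 to 127 CPM in the other 5 libraries, with 10 of the 12 markers listed and 2 of these at 0 in every Telogen library. Other marker sums that were higher in all Anagen libraries were those of sebocytes (435 to 602 CPM in Telogen, 814 to 1116.5 in Anagen, all 11 markers listed, with Mgst1 at 255 to 436 and 645 to 964 of these), pericytes and smooth muscle (57.6 to 118, then 210 to 278), Schwann cells and nerve (12.5 to 22.4, then 108 to 163) and erythroid cells (0, then 5.60 to 13.5, with 4 of 9 markers listed). In Anagen the pericyte sum was mostly Notch3 (95.5 to 194) and Mcam (54.6 to 107). Of its 8 listed markers, 4 rose and 1 fell, and Cspg4 was lower in Anagen (44.1 to 76.5, then 2.25 to 8.21). The Schwann sum in Anagen was mostly S100b (59.3 to 75.7) and Nes (31.9 to 70.6). Of its 9 listed markers, 3 rose and 1 fell, and Mbp was lower in Anagen (6.40 to 13.7, then 0.579 to 4.68). The sums of endothelial cells (4.15 to 6.53, then 9.72 to 18.3) and skeletal muscle (0.639 to 2.13, then 7.34 to 12.4) were higher in all Anagen libraries too. The endothelial sum in Anagen was mostly Ramp2 (6.22 to 8.24) and Cdh5 (1.94 to 7.86), with 7 of 12 markers listed and 1 that rose. Pecam1 was not higher in Anagen (0 to 2.31, then 0 to 0.165). The muscle sum in Anagen was mostly Myh4 (5.86 to 10.9), with 4 of 8 markers listed and 1 that rose. The sum of differentiating epidermis (1215.8 to 1751.7, then 1780.5 to 1992.8) was also higher, but mostly through Dsg1a (158 to 309, then 1355.2 to 1525.9). Of its 9 listed markers, 2 rose and 6 fell, Krt10 among the falls (574 to 1004.4, then 14.7 to 27.6). The part of these markers in the results was not tested. Without Anagen 1 and 2, which leaves 2 Anagen samples, 6 members rose and 3 fell, as Abcb6, Abcb8, Abcb9, Abcc4, Abcc5, Abcc10 and Abcf3 no longer passed. Most of their log2 fold changes stayed close, at 1.44 for Abcb8, 3.04 for Abcb9, -1.93 for Abcc4, 0.81 for Abcc5 and 0.80 for Abcf3, while those of Abcb6 (1.14) and Abcc10 (2.73) were smaller. Fewer cells of a type and less RNA per cell cannot be told apart in bulk RNA.

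Genes of high GC content and long genes tended to be higher in Anagen over the whole table, and the ABC genes are long. The median log2 fold change of all genes went from -0.49 in the shortest quartile to 0.50 in the longest, and from -0.26 to 0.47 over quartiles of GC content. The tested members had a median length of 4702.5 bases against 2927 for all genes tested, and 10 and 13 of the 26 were in the longest quartiles of genes. Their median GC content was 53.0% against 50.3%. In a fit whose offsets take up GC content and length, 5 members rose (Abca1, Abca3, Abca12 and Abcc1 among them) and 3 fell (Abcb1b, Abcc4 and Abce1), with a median of 0.18. The 12 rises and 4 falls of the fit without offsets make 75.0% of calls rises, and the 5 and 3 with them make 62.5%, while over all genes the share went from 52.2% to 46.5%. The part of GC content and length in the results was not tested.

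**Figure D1:**
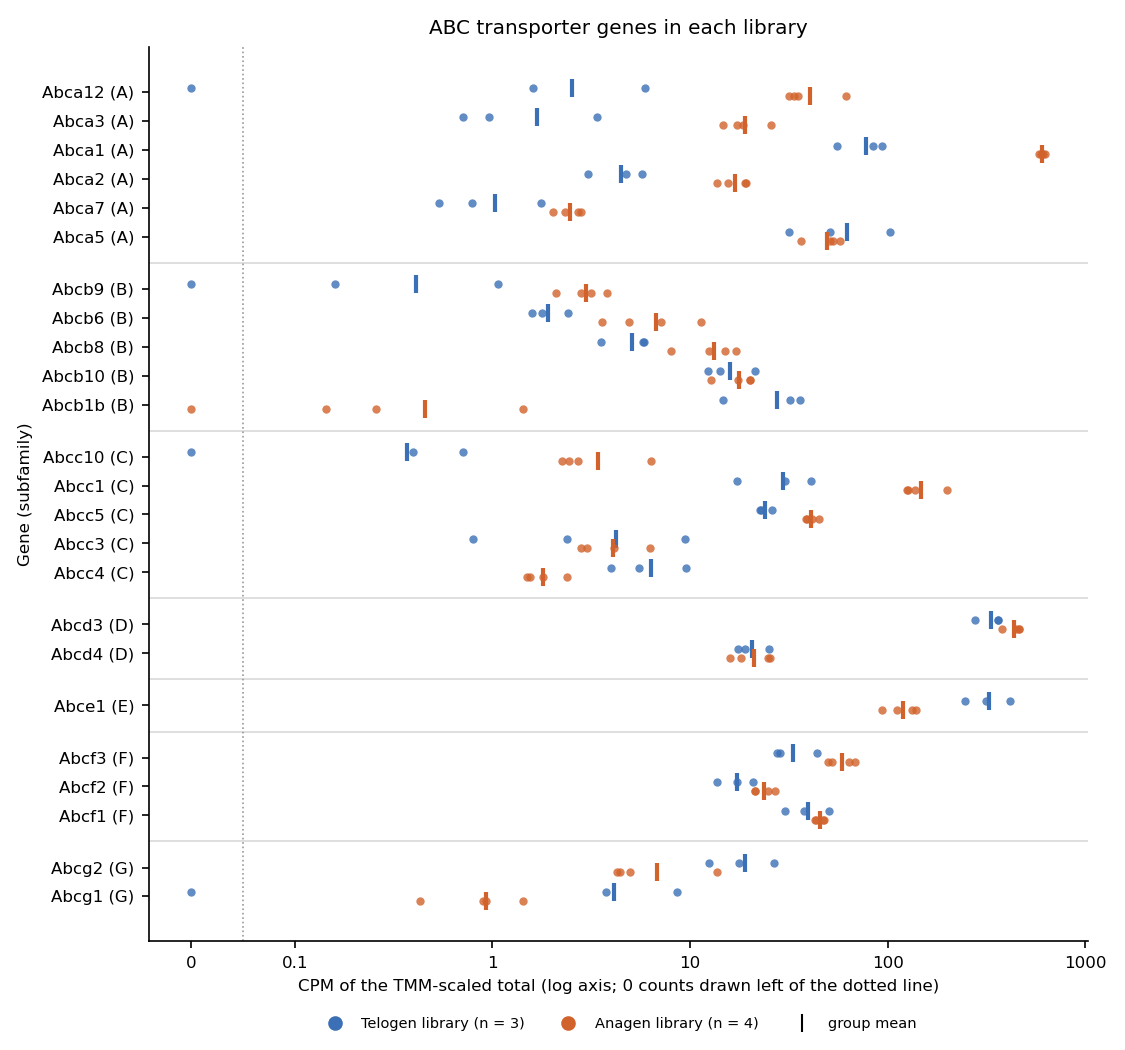
CPM of the TMM-scaled total (log axis) of each of 24 tested ABC genes in each of the 3 Telogen libraries (blue) and 4 Anagen libraries (orange), with the mean of each group as a bar, and libraries without counts left of the dotted line. Abca1 stands at 581 to 628 CPM in Anagen and 55.4 to 93.6 CPM in Telogen, and Abcb1b lies far lower in Anagen.

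**Figure D2:**
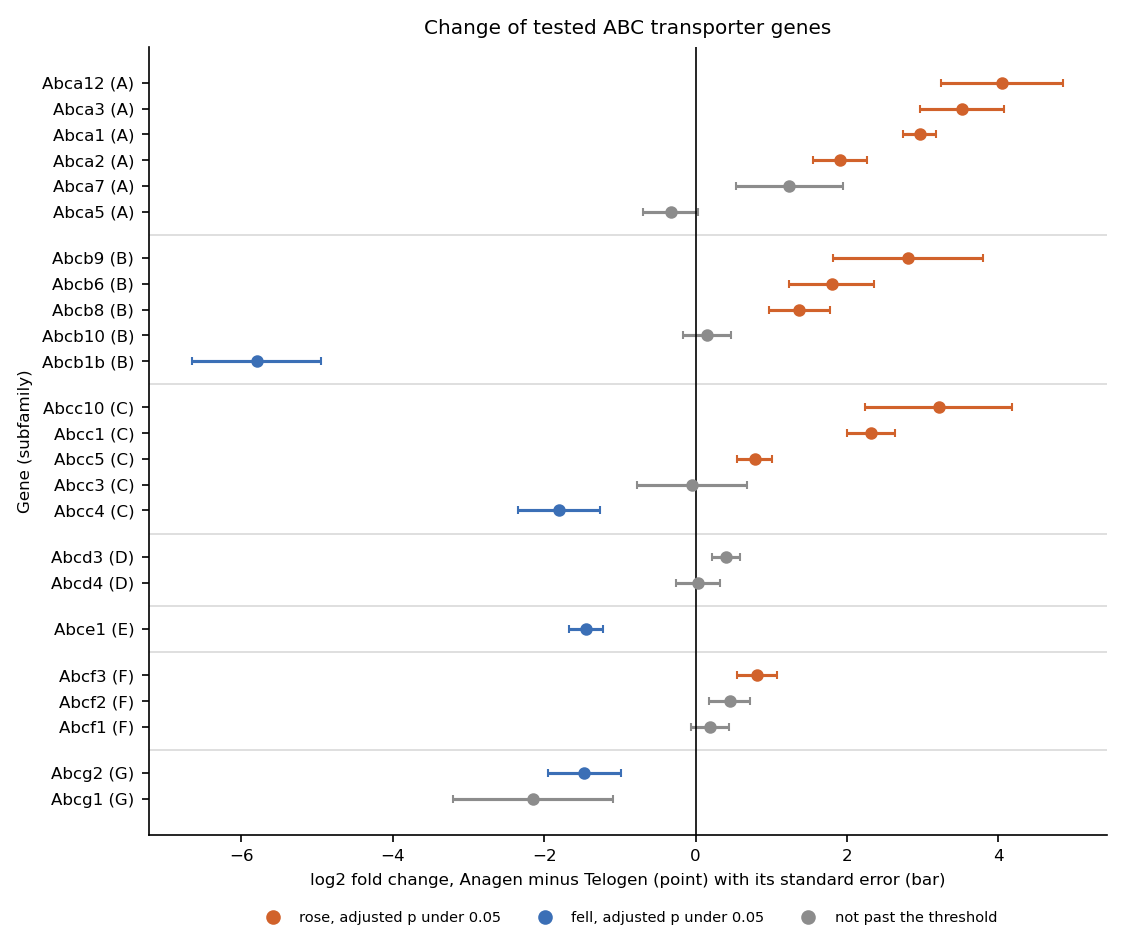
Log2 fold change, Anagen minus Telogen, of 24 tested ABC genes with their standard errors from edgeR's quasi-likelihood fit, coloured by whether each rose, fell or did not pass an adjusted p of 0.05. Subfamily A lies mostly to the right, with Abca12 at 4.05, and Abcb1b lies farthest left of those drawn at -5.80.

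Per kilobase of the deposited gene length, the only scale on which genes are compared here, the family summed to 320 ± 26.4 CPM per kilobase in Telogen (SD, n = 3) and 376 ± 12.1 in Anagen (SD, n = 4). The make-up of this sum differed more than its size. Subfamily A stood at 14, 21.3 and 13.5 CPM per kilobase in Telogen 1 to 3 and at 74.4, 72.6, 69.9 and 81.8 in Anagen 1 to 4. Its share of the family sum was 5.17% on average in Telogen and 19.9% in Anagen. Subfamily E, which is Abce1 alone, went the other way, from a mean share of 26.2% to 8.27%. Subfamily D held the highest share in Anagen, 36.9%, and 32.7% in Telogen. Subfamily C held 3.41% and 8.94%, B 20.7% and 14.3%, F 9.11% and 11.0%, and G 2.66% and 0.777%. The shares of A, C and F were higher in every Anagen library than in every Telogen library, and the shares of B and E were lower, for B by a narrow gap between 17.5% in Telogen 1 and 16.8% in Anagen 1. These sums and shares are descriptions without a test.

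Abcd3 headed the members in both phases, at 97.1 CPM per kilobase in Telogen and 128 in Anagen, above 92.8% and 96.7% of all tested genes. Abce1 was second in Telogen at 84.8. In Anagen, Abca1 was second at 58.5 and Abce1 was at 31.1. Abca1 moved from the eighth place among members at 7.53 CPM per kilobase to the second.

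**Figure D3:**
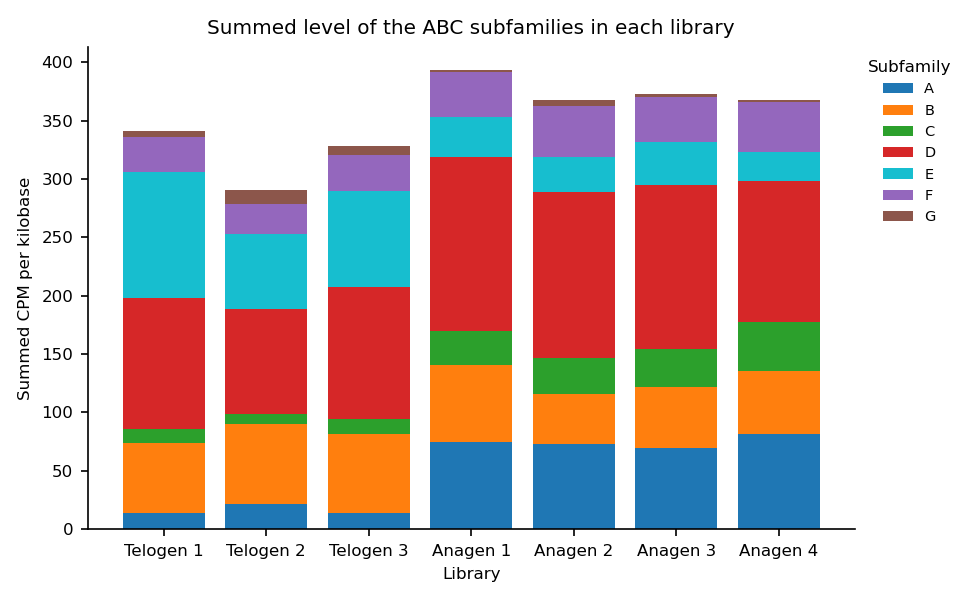
Summed CPM per kilobase of deposited length of the ABC subfamilies A to G, stacked, in each of the 7 libraries. The height is 291 to 342 in Telogen and 368 to 394 in Anagen, the A layer is thicker in every Anagen library and the E layer thicker in every Telogen library.

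Subfamily A, the lipid transporters, held 4 genes that rose among its 6 tested members, and the other 2 did not pass, with a median log2 fold change of 2.43, or 1.51 with offsets. Abca1 exports cholesterol and phospholipid to apolipoprotein A-I and is the first step in making high-density lipoprotein (NM_013454, mm10 chromosome 4, 53030789 to 53159895). Its levels were 93.6, 84.0 and 55.4 CPM in Telogen 1 to 3 and 609, 593, 581 and 628 CPM in Anagen 1 to 4. The Anagen libraries were close to one another and all far above Telogen. Abca1 rose 7.76-fold, from 77.7 ± 19.8 (SD, n = 3) to 603 ± 20.5 CPM (SD, n = 4), a log2 fold change of 2.96 ± 0.22 (SE, edgeR adjusted p = 3.51e-06).

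Abca12 loads glucosylceramides into the lamellar granules of keratinocytes and is the gene of harlequin ichthyosis in humans (NM_175210, mm10 chromosome 1, 71243090 to 71414910). It stood at 1.60, 0 and 5.94 CPM in Telogen and 31.7, 33.5, 35.3 and 61.3 CPM in Anagen. The groups did not overlap, and Anagen 4 was the highest. Abca12 rose 16.6-fold, by 4.05 ± 0.81 on the log2 scale (edgeR adjusted p = 0.00194), and the fold was 10.9 without Telogen 2 and 52.0 without Telogen 3. Markers of differentiating epidermis summed to 1215.8 to 1751.7 CPM in Telogen and 1780.5 to 1992.8 CPM in Anagen. Of the 9 listed, 2 rose and 6 fell, and Dsg1a made up most of the Anagen sum. Their part in the Abca12 result was not tested.

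Abca3 moves phospholipids into the lamellar bodies of lung alveolar cells (NM_013855, mm10 chromosome 17, 24352023 to 24410204). Its values were 0.712, 0.958 and 3.37 CPM in Telogen and 17.2, 14.7, 18.6 and 25.6 CPM in Anagen, with no overlap. Abca3 rose 11.5-fold, by 3.52 ± 0.55 (edgeR adjusted p = 3.99e-04), or 22.5-fold without Telogen 3. Of its 9374 annotated exon bases, 914 are shared with D330041H03Rik on the opposite strand, and without strand the reads of the 2 genes cannot be told apart. The neighbouring gene Abca17, whose start faces that of Abca3, had 3 counts in all.

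Abca2, an endolysosomal lipid transporter best known in brain, was at 5.69, 3.03 and 4.75 CPM in Telogen and 19.2, 15.6, 13.7 and 18.9 CPM in Anagen (NM_007379, mm10 chromosome 2, 25428674 to 25448539). The groups lay well apart. Abca2 rose 3.75-fold, by 1.91 ± 0.36 (edgeR adjusted p = 0.00141). With these offsets its change was 0.80 ± 0.33 and missed the threshold (adjusted p = 0.0678).

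Abca7, a phospholipid transporter, was between 0.534 and 1.76 CPM in Telogen and between 2.02 and 2.81 CPM in Anagen, and its change of 1.24 ± 0.71 did not pass although the groups did not overlap (edgeR adjusted p = 0.171). It was 1.89 without Telogen 2 and 0.14 with offsets. Abca5, a lysosomal member, had values of 31.8 to 103 CPM in Telogen that enclosed all Anagen values of 36.3 to 57.1 CPM. Its log2 fold change was -0.33 ± 0.36 (adjusted p = 0.468), or 0.26 without Telogen 2. The other 5 members of the subfamily had almost no reads, with totals over the 7 libraries of 6 counts for Abca13, 5 each for Abca4 and Abca8a, 4 for Abca9 and 3 for Abca17. All of these counts were in Anagen libraries, those of Abca8a and Abca9 in Anagen 1 and 2, where the fibroblast markers were high. The deeper Anagen libraries could show such low levels more readily than the Telogen libraries.

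Subfamily B, which mixes multidrug transporters of the cell surface with peptide, porphyrin and iron-sulphur transporters of organelles, had 3 members that rose, 1 that fell and 2 that did not pass among 6 tested, with a median of 0.76, or 0.28 with offsets. Abcb1b is a P-glycoprotein, the multidrug exporter that rodents encode in a pair of genes (NM_011075, mm10 chromosome 5, 8798147 to 8866314). It was at 32.2, 36.1 and 14.6 CPM in Telogen and at 0.144, 1.43, 0.257 and 0 CPM in Anagen. Anagen 4 had no count of it, and the highest Anagen value was about an order below the lowest in Telogen. Abcb1b was 55.8-fold lower in Anagen, a log2 fold change of -5.80 ± 0.85 (edgeR adjusted p = 2.83e-04), and 186-fold lower without Anagen 2. Its neighbours Abcb1a, the other P-glycoprotein gene, and Abcb4, the phosphatidylcholine transporter of bile, had 4 counts each, all in Anagen. The transcripts of Abcb1b and Abcb1a are 87.7% identical over 4002 aligned bases, so reads could have been split between them or lost, depending on the counting. Of the 6 listed melanocyte markers, 1 fell and 1 rose. Their sum of 166 to 319 CPM in Telogen and 19.8 to 24.7 CPM in Anagen is mostly Mitf (158 to 307, then 4.89 to 13.7), while Pmel was higher in Anagen (3.38 to 5.75, then 7.55 to 14.9). Their part in the fall of Abcb1b was not tested.

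The organelle transporters of the subfamily were lower in level. Abcb9 carries peptides into lysosomes (NM_019875, mm10 chromosome 5, 124061857 to 124095798). It had 1.07, 0.160 and 0 CPM in Telogen, which are 6, 1 and 0 reads, and 2.09, 2.81, 3.80 and 3.14 CPM in Anagen. The groups did not overlap, but the Telogen values rest on 7 reads. Abcb9 rose 7.03-fold, by 2.81 ± 0.99 (edgeR adjusted p = 0.0348). The fold was 30.8 without Telogen 1, and the call was lost without Telogen 2 (0.0958), Telogen 3 (0.0708), Anagen 2 (0.0525), Anagen 3 (0.0640) or Anagen 4 (0.0566), each an adjusted p.

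Abcb6 transports porphyrins (NM_023732, mm10 chromosome 1, 75171641 to 75180392). Its values were 1.78, 2.40 and 1.58 CPM in Telogen and 11.3, 7.11, 3.60 and 4.93 CPM in Anagen. They did not overlap, and Anagen 1 was the highest. Abcb6 rose 3.48-fold, by 1.80 ± 0.56 (edgeR adjusted p = 0.0201), and did not pass without Anagen 1 (0.0782) or without Anagen 1 and 2 (2.21-fold, 0.276). It shares 2932 of 5315 exon bases with the transcript Gm29253 on the same strand, so its counts are uncertain.

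Abcb8, a mitochondrial member linked to iron export, was at 5.87, 5.75 and 3.56 CPM in Telogen and 17, 7.99, 15.1 and 12.5 CPM in Anagen (NM_029020, mm10 chromosome 5, 24394156 to 24409947). The groups did not overlap, although Anagen 2 came near Telogen. Abcb8 rose 2.58-fold, by 1.37 ± 0.40 (edgeR adjusted p = 0.0151). With the offsets, none of Abcb6 (adjusted p = 0.124), Abcb8 (0.207) and Abcb9 (0.111) passed.

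Abcb10, a mitochondrial member of haem-forming cells, was at 12.3 to 21.2 and 12.7 to 20.1 CPM, with a log2 fold change of 0.15 ± 0.32 (adjusted p = 0.722) that turned to -0.54 with offsets. Abcb11, the bile salt export pump, had no count in Telogen and 41 in Anagen, of which 27 were in Anagen 4. Against 3 counts over the summed Telogen totals it was at least 3.76-fold higher, or at least 1.66-fold without Anagen 4, and it was not tested.

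Subfamily C, the exporters of conjugates and cyclic nucleotides, had 3 members that rose, 1 that fell and 1 that did not pass among 5 tested, with a median of 0.78, or 1.37 without Telogen 1 and 0.22 with offsets. Abcc1, the multidrug resistance protein that exports glutathione conjugates and leukotriene C4, was the highest in Anagen (NM_008576, mm10 chromosome 16, 14361558 to 14474878). It measured 30.2, 17.2 and 41.0 CPM in Telogen and 125, 127, 137 and 200 CPM in Anagen. No values overlapped, and Anagen 4 stood above the other 3. Abcc1 rose 5.01-fold, by 2.32 ± 0.32 (edgeR adjusted p = 1.80e-04).

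Abcc10, a drug exporter of low level, was at 0.712, 0 and 0.396 CPM in Telogen, 6 reads in all, and 2.45, 6.33, 2.25 and 2.71 CPM in Anagen (NM_145140, mm10 chromosome 17, 46303230 to 46325766). Anagen 2 was the highest. Abcc10 rose 9.26-fold, by 3.21 ± 0.97 (edgeR adjusted p = 0.0185). The fold was 17.9 without Telogen 1 and 6.11 without Telogen 2, and the call was lost without Anagen 2 (0.0522) and with offsets (0.0672).

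Abcc5, an exporter of cyclic nucleotides, differed less but with little spread, at 22.6, 26.0 and 22.8 CPM in Telogen and 38.9, 41.6, 44.8 and 38.4 CPM in Anagen (NM_013790, mm10 chromosome 16, 20331304 to 20426394). The groups did not overlap. Abcc5 rose 1.72-fold, by 0.78 ± 0.23 (edgeR adjusted p = 0.0164), and with offsets its change was 0.22 ± 0.23 (0.462).

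Abcc4, which exports cyclic AMP and prostaglandins, was at 5.52, 3.99 and 9.50 CPM in Telogen and 2.38, 1.54, 1.80 and 1.50 CPM in Anagen (NM_001033336, mm10 chromosome 14, 118482692 to 118706219). All Anagen values were below Telogen. Abcc4 was 3.49-fold lower in Anagen, by -1.80 ± 0.54 (edgeR adjusted p = 0.0170), and missed the threshold without Telogen 3 (0.0903). Abcc3, a relative of Abcc1 best known in liver and gut, ranged from 0.799 to 9.43 CPM in Telogen and from 2.81 to 6.24 CPM in Anagen, with a change of -0.05 ± 0.73 (adjusted p = 0.961). Its sign turned to 1.37 without Telogen 1. Abcc9, the sulphonylurea receptor subunit of potassium channels in vascular smooth muscle, had 5 counts, all in Anagen 1 and 2.

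Of subfamily D, the acyl-CoA transporters of peroxisomes and a cobalamin transporter of lysosomes, Abcd3 and Abcd4 are described. Abcd3, the abundant peroxisomal membrane protein that imports branched-chain acyl-CoA and bile acid precursors, was at 361, 275 and 361 CPM in Telogen and 463, 462, 444 and 379 CPM in Anagen (NM_008991, mm10 chromosome 3, 121758910 to 121815215). Each Anagen value was above each Telogen value, yet the change of 0.40 ± 0.18 did not pass (edgeR adjusted p = 0.0855). Abcd4, which exports cobalamin from lysosomes, had values of 17.4 to 25.2 CPM in Telogen and 15.9 to 25.3 CPM in Anagen. Its change of 0.03 ± 0.29 did not pass (adjusted p = 0.940), and it was -0.48 with offsets.

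Abce1, the only member of subfamily E, splits ribosomes into subunits at the end of translation and is not a transporter (NM_015751, mm10 chromosome 8, 79683442 to 79711740). It was at 415, 246 and 314 CPM in Telogen and 133, 112, 139 and 93.8 CPM in Anagen. The lowest Telogen library was well above the highest Anagen library. Abce1 was 2.72-fold lower in Anagen, by -1.45 ± 0.22 (edgeR adjusted p = 3.94e-04). The processed pseudogene Gm6640 is 93.6% identical to it over 1589 aligned bases, and reads could have been split between them.

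Subfamily F, whose products act in translation and its control, had 1 member that rose and 2 that did not pass, with a median of 0.45, or 0.05 with offsets. Abcf3, the highest of them in Anagen, was at 43.9, 27.6 and 28.5 CPM in Telogen and 50.1, 68.4, 52.0 and 63.8 CPM in Anagen (NM_013852, mm10 chromosome 16, 20548603 to 20561603). The groups did not overlap but Telogen 1 came close. Abcf3 rose 1.76-fold, by 0.81 ± 0.26 (edgeR adjusted p = 0.0236). The call was lost without Telogen 2 (0.0664), Telogen 3 (0.0624), Anagen 2 (0.0713) or Anagen 4 (0.0545), and with offsets (0.354). Abcf2 was at 13.7 to 20.8 CPM in Telogen and 21.2 to 26.9 CPM in Anagen, a change of 0.45 ± 0.27 that did not pass (adjusted p = 0.196).

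Abcf1, which binds initiation factor eIF2, had the highest level per kilobase of subfamily F in Telogen (NM_013854, mm10 chromosome 17, 35956819 to 35969750). Its values were 37.7, 30.2 and 50.7 CPM in Telogen and 47.6, 47.1, 43.4 and 42.7 CPM in Anagen. The Anagen values lay inside the Telogen range, and the change was 0.19 ± 0.25 (edgeR adjusted p = 0.535), or -0.45 with offsets. Processed pseudogenes 90.6% identical to Abcf2 over 1045 bases (Gm8345) and 90% identical to Abcf1 over 1676 bases (Gm8844) make both counts uncertain.

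Subfamily G, the sterol and drug exporters, had 1 member that fell and 1 that did not pass among 2 tested, with a median of -1.81, or -1.06 without Telogen 2. Abcg2 is the exporter that clears dyes from side-population stem cells (NM_011920, mm10 chromosome 6, 58596672 to 58692451). It was at 12.5, 26.7 and 17.6 CPM in Telogen and 4.25, 13.7, 4.95 and 4.43 CPM in Anagen. The groups overlapped, because Anagen 2 was above Telogen 1. Abcg2 was 2.76-fold lower in Anagen, by -1.47 ± 0.48 (edgeR adjusted p = 0.0262), and 4.18-fold lower without Anagen 2. The call was lost without Telogen 2 (0.110), Anagen 1 (0.0687), Anagen 3 (0.0680) or Anagen 4 (0.0628), and with offsets (0.109).

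Abcg1, which passes cholesterol to lipoprotein particles, was at 0, 8.62 and 3.76 CPM in Telogen and 0.432, 1.43, 0.901 and 0.928 CPM in Anagen. Telogen 1 had none while the other 2 Telogen libraries were above all of Anagen. Its log2 fold change of -2.15 ± 1.06 did not pass (edgeR adjusted p = 0.114), and it was -2.72 without Telogen 1 (0.0124) and -0.99 without Telogen 2 (0.55). Abcg4 had 2 reads in Telogen and 4 in Anagen, and was not tested.

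**Figure D4:**
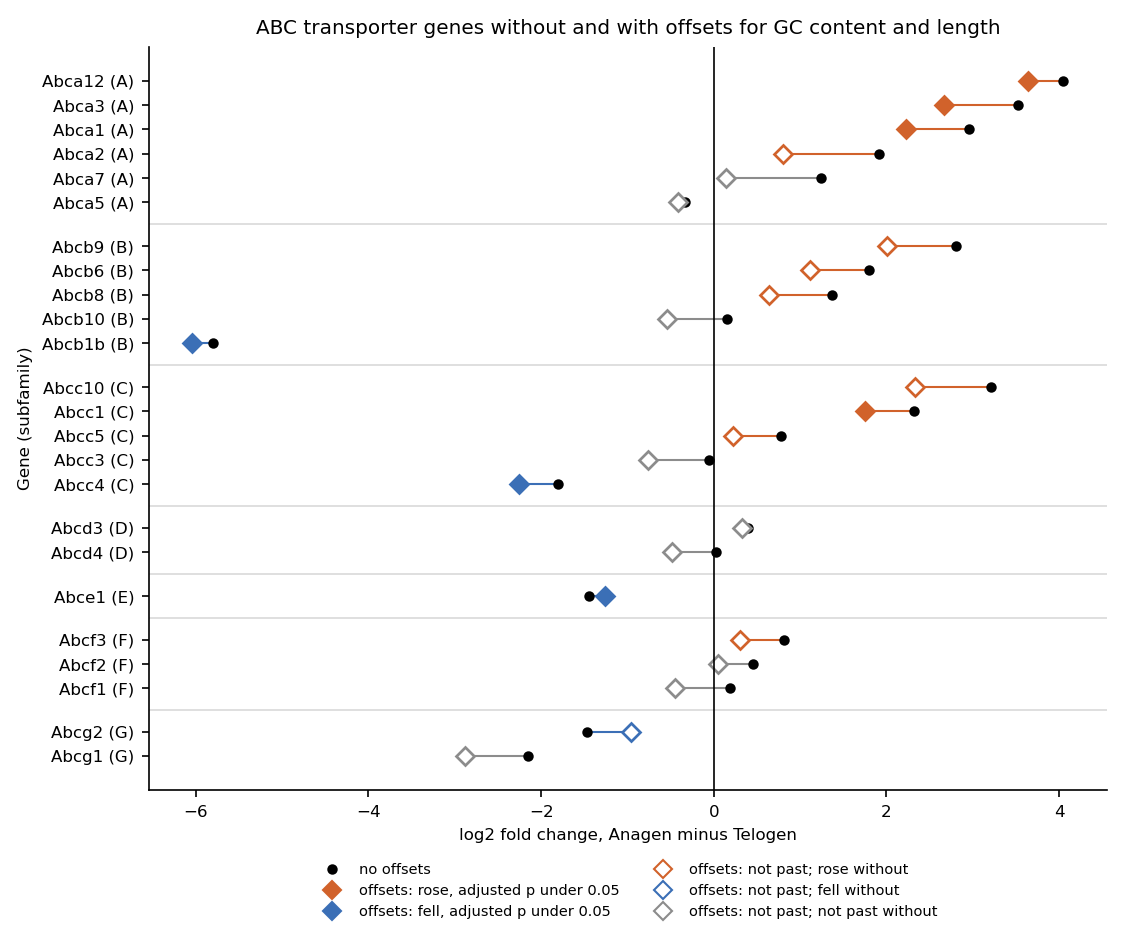
Log2 fold change, Anagen minus Telogen, of 24 tested ABC genes from edgeR without (black points) and with (diamonds) offsets for GC content and length (filled where the adjusted p was under 0.05). Abca1 moves from 2.96 to 2.23 and stays past the threshold, as do Abca3, Abca12 and Abcc1 among the rises, while Abca2 moves from 1.91 to 0.80 and no longer passes.

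Abca1, Abca3, Abca12 and Abcc1 rose, and Abcb1b and Abce1 fell, under each of 14 alternatives, which were other scalings and tools, no filter, equal depth, the offsets, the replicate block, and the omission of each library and of Anagen 1 and 2 together. When all libraries were thinned to 5097457 counts, 12 members rose and 4 fell among 25 tested, the same genes as at full depth. Family members outside the naming rule were Tap1 and Tap2, the peptide transporter of antigen presentation, and Cftr, a chloride channel. Tap1 was at 4.15 to 10.5 CPM in Telogen and 30.4 to 38.8 CPM in Anagen and rose 4.36-fold (edgeR adjusted p = 6.15e-04). Tap2 rose 2.56-fold (adjusted p = 0.00545) but did not pass with offsets (0.0504) or without Anagen 1 and 2 (0.0573). Cftr had 6 counts, all in Anagen 3.

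Genes that work beside the transporters were counted in lists, each against the 49.5% of all genes tested that passed. Some listed genes passed the filter on low counts through the Anagen libraries alone, so the shares describe the genes tested. Of 18 tested genes of sterol efflux and uptake, 6 rose and 5 fell (61.1%, median 0.27). Apoe, an apolipoprotein that accepts exported cholesterol, rose 3.27-fold, from 1356.7 ± 158 to 4432.7 ± 921 CPM (edgeR adjusted p = 9.11e-05). Nceh1, a cholesterol ester hydrolase, rose 4.88-fold (5.33 ± 2.25 to 25.9 ± 3.71 CPM, adjusted p = 4.06e-04). Of the 5 falls, 3 passed without Anagen 1 and 2.

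Barrier lipid genes, the partners of Abca12, showed 3 rises and 5 falls among 16 tested (50.0%, median -0.27). Elovl4, which elongates very long fatty acids, was 10.7-fold lower in Anagen (227 ± 141 to 21.2 ± 6.82 CPM, edgeR adjusted p = 1.41e-04). The subunit genes of serine palmitoyltransferase, the entry enzyme of sphingolipid synthesis, went in opposite directions. Sptlc2 rose 3.19-fold (35.4 ± 8.11 to 113 ± 16.4 CPM, 2.35e-04), and Sptlc3 was 23.9-fold lower (70.2 ± 21.4 to 2.92 ± 2.28 CPM, 4.52e-04), or 66.2-fold without Anagen 1 and 2.

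For the mitochondrial B members, the haem and iron-sulphur genes held 5 rises and 4 falls among 21 tested (42.9%, median 0.04). Tfrc, the transferrin receptor, rose 5.13-fold (39.2 ± 6.59 to 201 ± 14.9 CPM, edgeR adjusted p = 8.26e-06). Fth1, the ferritin heavy chain that stores iron, was 6.63-fold lower in Anagen (560 ± 91.1 to 84.5 ± 32.4 CPM, 4.86e-05), and Hscb, a chaperone of iron-sulphur cluster transfer, was 4.70-fold lower (44.7 ± 9.19 to 9.51 ± 3.36 CPM, 2.60e-04).

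Peroxisomal genes, the partners of subfamily D, showed 5 rises and 2 falls among 24 tested (29.2%, median 0.02), and 1 rise and 1 fall without Anagen 1 and 2. Amacr, a racemase of branched-chain acyl-CoA, was 5.25-fold lower in Anagen (50.1 ± 12.3 to 9.53 ± 2.57 CPM, edgeR adjusted p = 1.13e-04). Scp2, a peroxisomal thiolase and sterol carrier, was 2.03-fold lower (205 ± 59.7 to 101 ± 20.6 CPM, 0.00508), and did not pass without Anagen 1 and 2 (0.0703).

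Ribosome recycling and initiation genes, the partners of subfamilies E and F, showed 3 rises and 5 falls among 20 tested (40.0%, median -0.25), with 1 rise under offsets. The 3 with the smallest adjusted p were lower in Anagen. Eif1a was 3.84-fold lower (512 ± 80.5 to 133 ± 11.7 CPM, edgeR adjusted p = 1.24e-05), Eif2s2 5.82-fold lower (918 ± 293 to 158 ± 33.3 CPM, 2.31e-05) and Eif1 3.37-fold lower (179 ± 26.2 to 53.0 ± 10.2 CPM, 9.73e-05). The initiation factor genes Eif2s1, Eif2s3x, Eif5 and Eif5b did not pass. The 3 rises were Gspt1 (2.13-fold, edgeR adjusted p = 0.00144), Gcn1l1 (4.15-fold, 0.0172) and Eif2ak4 (2.52-fold, 0.00910), the last not passing without Anagen 1 and 2 (0.0982).

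Glutathione and conjugation genes, which supply the substrates of subfamily C, showed 9 rises and 3 falls among 19 tested (63.2%, median 0.55), with 5 rises without Anagen 1 and 2. Gclc, the catalytic subunit of the rate-limiting enzyme of glutathione synthesis, rose 14.9-fold (74.0 ± 8.29 to 1103.3 ± 233 CPM, edgeR adjusted p = 9.35e-07). Slc7a11, which imports cystine, was listed with 0 counts in Telogen and with a mean of 35.9 ± 10.1 CPM in Anagen, at least 201-fold higher (9.03e-06). It is among the rises of this list that had no Telogen count and so could only rise. Nqo1, a quinone reductase, was 16-fold lower (43.3 ± 13.0 to 2.70 ± 0.555 CPM, 6.98e-06), and the list held 1 fall under offsets.

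Among 9 tested uptake carriers and nuclear regulators of the drug transporters, 4 rose (44.4% past the threshold, median 0.31), and 2 without Anagen 1 and 2. Hif1a, the oxygen-regulated transcription factor, rose 3.69-fold (518 ± 109 to 1911.3 ± 737 CPM, edgeR adjusted p = 5.17e-04). The organic anion carrier Slco4a1 rose 4.01-fold (3.30 ± 1.14 to 13.3 ± 5.55 CPM, 0.00570). Its relative Slco2b1 rose 13.4-fold (0.792 ± 1.37 to 10.1 ± 4.43 CPM, 0.0120), with 12 Telogen counts. All 12 of these were in Telogen 3, and the call was lost without Anagen 1 and 2 (0.110).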

How the data were processed

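RNA-seq libraries of 3 Telogen and 4 Anagen samples were compared. The deposited table gives the authors' raw read counts per gene and, per the file headers, RPKM values. The RPKM values equalled count divided by length and total in 107905 of 107905 values (relative tolerance 1e-10), so the counts were used throughout. Per the submitters' processing notes, mm10 was the genome build. Which aligner, counter and strand setting were used is not given in the sources used here. Starts in the table are 0-based and are printed 1-based.

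Genes passing filterByExpr (minimum count 10, minimum total 15) were fitted with edgeR 4.0.16 (R 4.3.3; limma 3.58.1), TMM factors and a robust quasi-likelihood fit, with Benjamini-Hochberg adjustment over 12266 genes. A standard error is the absolute log2 fold change divided by the root of F. Levels are CPM on TMM-scaled totals. For a group at 0, a bound uses 3 counts over the group's summed totals and covers counting error only. GC content came from GENCODE M21 transcripts, found for 36 of 36 members. Transcripts were compared with blastn 2.17.0. DESeq2 1.42.0, other scalings, no filter, thinning, offsets, the replicate block and left-out libraries were alternatives. The scripts were tested on simulated data.

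The members and lists were chosen with earlier results of these data known. Values per sample are given for up to 4 members per subfamily past the threshold with the largest change and a mean of at least 1 CPM, and for the highest per kilobase. Up to 3 genes per partner list with the smallest adjusted p are named. Some members and partners are counted but not reported here by name. Other genes with values were chosen after they were seen.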

Additional observations from a re-analysis of the deposited data

Results flagged for a closer look

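In 4 of the 26 tested ABC genes, 1 Anagen library stood apart from the other 3 by Dixon's gap test. For normally distributed values, chance flags about 1 in 20 groups, which CPM values need not follow. The share flagged among all genes tested is not given here, so the count of 4 is not a result about the family. Anagen 4 was high for Abca12, at 61.3 CPM against 31.7 to 35.3 CPM, and for Abcc1, at 200 CPM against 125 to 137 CPM. Both remain far above Telogen with the other 3 libraries. Anagen 2 was high for Abcc10, at 6.33 CPM against 2.25 to 2.71 CPM, and for Abcg2, at 13.7 CPM against 4.25 to 4.95 CPM. Abcg2 in Anagen 2 is the value that makes its groups overlap.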

How the results depend on the processing

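The 12 rises and 4 falls among the members were the same under DESeq2 size factors, DESeq2, no filter and thinning. With the offsets (GC content and length) 5 rose, with the replicate block 6, and without Anagen 1 and 2 together 6. The median log2 fold change of the members, 0.62, was 1.60 with no filter, where all 36 are tested, 0.73 after thinning and 0.18 with offsets. Leaving out 1 library at a time gave 9 to 12 rises, 3 to 5 falls and medians of 0.58 to 0.85. Same-numbered Telogen and Anagen libraries did not clearly deviate together (correlations of 0.00, 0.08 and -0.05). Other pairs of libraries ranged from -0.11 to 0.10, so a weak pairing by number could not be seen. The block, which leaves out Anagen 4, gave 6 rises and 3 falls. No member past the threshold changed direction. Members that did not pass changed sign as follows, and the cause was not tested. With offsets, Abcf1 was at -0.45, Abcb10 at -0.54 and Abcd4 at -0.48. Abcd4 was also at -0.03 under DESeq2 size factors and DESeq2, and at -0.07 to 0.21 with a library left out. Abca5 ranged from -0.64 to 0.26 and Abcc3 from -0.54 to 1.37 with a library left out, and Abcc3 was at 0.47 with the block and 0.31 without Anagen 1 and 2. Depth limits the low members most, since 3 Telogen counts separate a level from 0.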
